A study of Mus musculus with 12 samples.

Results

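The genes described here are 9 that write, read or remove methyl groups on cytosine in DNA, namely Dnmt1, Dnmt3a, Dnmt3b, Uhrf1, Tet1, Tet2, Tet3, Tdg and Mbd4. They were taken by symbol from the 55573 genes of a raw count table. RNA was sequenced from mouse embryonic fibroblasts (MEFs) of C57BL/6 embryos at stage E13.5. Their genome holds the i4F transgene, which doxycycline switches on and which makes OSKM, a set of 4 proteins (Oct4, Sox2, Klf4, Myc) able to turn fibroblasts into pluripotent cells. Cells of 3 embryos, called clones 1, 2 and 3, were each grown for 72 h in stem cell medium in 4 ways, which gave 12 libraries: without doxycycline (MEF), without doxycycline and with 2 µM added vitamin B12 (MEF+B12), with 1 µg/ml doxycycline (OSKM), and with both (OSKM+B12). This dose of doxycycline comes from the labels, and the study's methods for cultured cells have mg in place of µg. All groups therefore share the transgene and the medium, and only the induced cells received doxycycline, so the drug and the factors cannot be told apart.

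Methyl groups on CpG dinucleotides are copied to the new DNA strand after replication by DNMT1, which is brought to half-methylated sites by UHRF1. DNMT3A and DNMT3B place methyl groups on unmethylated DNA, and the TET enzymes oxidize 5-methylcytosine, after which thymine DNA glycosylase (TDG) can cut out the oxidized base and base excision repair restores cytosine. MBD4 binds methylated CpGs and removes thymine from T:G mismatches left by deamination. During conversion of fibroblasts to induced pluripotent stem cells this machinery reshapes the methylation of pluripotency genes, and Dnmt3b and Tet1 are known for high expression in pluripotent cells. DNA methylation itself was not analysed here, and bulk RNA does not tell fewer expressing cells from less RNA per cell.

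Both partners of maintenance methylation, Uhrf1 and Dnmt1, are textbook targets of E2F factors, which drive genes of DNA replication. The 250 bases before each RefSeq start (build GRCm38.p6) were therefore searched on both strands for TTTCGCGC, TTTGGCGC and TTTCCCGC, octamers of the E2F type chosen from textbook knowledge. All 9 genes had windows, 14 in all, and 2 genes held a match, each of 1 octamer in 1 window, against 1.78% of the 27025 genes in the reference. By window it was 2 of the 14, against 1.53% of 32851 windows. Of 12 genes of the S phase list used below with a window, 4 held a match. Of 2 genes with a window whose pattern was like that of Uhrf1 (below), 0 held a match. One match stood 185 bases before the inner start of Uhrf1, in a window (chr17:56304063-56304312, plus strand) that overlaps no annotated exon of Uhrf1 and lies inside the gene, downstream of its outer start. The other stood 219 bases before the innermost start of Dnmt1 (chr9:20952835-20952842, minus strand), on the opposite strand to the gene and inside an annotated first exon of other Dnmt1 transcripts. The sequences are shown because Uhrf1 is the gene on which the B12 comparison below turns, and capitals mark the octamer.
Uhrf1, 250 bases before the inner start: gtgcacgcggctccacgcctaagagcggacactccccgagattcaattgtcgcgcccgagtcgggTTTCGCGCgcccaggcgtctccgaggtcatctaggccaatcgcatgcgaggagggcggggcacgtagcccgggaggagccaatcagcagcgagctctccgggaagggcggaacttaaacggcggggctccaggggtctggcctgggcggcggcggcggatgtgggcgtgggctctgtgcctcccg
Dnmt1, 30 bases around the match (chr9:20952824-20952853): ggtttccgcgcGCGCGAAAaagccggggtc
The Dnmt1 octamer reads as the reverse complement of the one in Uhrf1. A match of letters is a description of these windows and says nothing about binding.

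The libraries held 56971244 to 79236795 counted read pairs, and 19174 genes passed the filter on low counts, all 9 genes among them. Induction could be read from Pou5f1, the Oct4 gene, in CPM, counts scaled to the size of the library. It was at 18.5 to 20.7 CPM with doxycycline in clones 1 and 2 but at 2.34 to 2.86 CPM in clone 3, against at most 0.468 CPM without doxycycline. Myc was at 43.6 to 53.4 CPM with doxycycline in clones 1 and 2 against 16.4 to 23.3 without it, whereas in clone 3 it reached 21.9 with it and 20.2 without it. Klf4 was at 108 to 123 CPM with doxycycline and at 118 to 143 without it. Xist was at 219 to 350 CPM in clones 2 and 3 and at no more than 0.0289 CPM in clone 1, and Ddx3y, on the Y chromosome, was detected only in clone 1. The titles of the clone 1 libraries also hold a later year than those of the others. Sex, title year and embryo thus cannot be told apart in clone 1. Fibroblast marker sums were 88190 to 141800 CPM per library, and macrophage marker sums were 1166 to 2974 CPM with none of the 11 markers at 0.

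The 9 genes stood at different RNA levels. Per kilobase of exon, which allows levels of different genes to be compared, Dnmt1 was highest at 13.0 ± 0.712 CPM per kilobase (mean ± SD, n = 12 libraries). It was followed by Tdg at 8.79 ± 0.714, Uhrf1 at 8.01 ± 1.20 and Dnmt3a at 5.97 ± 0.463. Processed pseudogenes that share sequence with Tdg (below) held further counts, which these levels leave out. With those counts added Tdg could stand above Dnmt1, so the order of Dnmt1 and Tdg holds only for counts given to each gene itself. Tet3 stood at 1.65 ± 0.127, Mbd4 at 0.990 ± 0.118, Dnmt3b at 0.625 ± 0.0636, Tet2 at 0.531 ± 0.0460 and Tet1 at 0.421 ± 0.0756 CPM per kilobase. The ranges over libraries of Tdg and Uhrf1 overlapped, as did those of Dnmt3b and Tet2 and of Tet2 and Tet1, so these neighbours in the order were not separated. No other pair of neighbours overlapped, though Uhrf1 (lowest library 6.61) and Dnmt3a (highest library 6.54) came close. The de novo enzyme of early embryos, Dnmt3b, was thus a minor transcript in these fibroblasts.

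**Figure D1:**
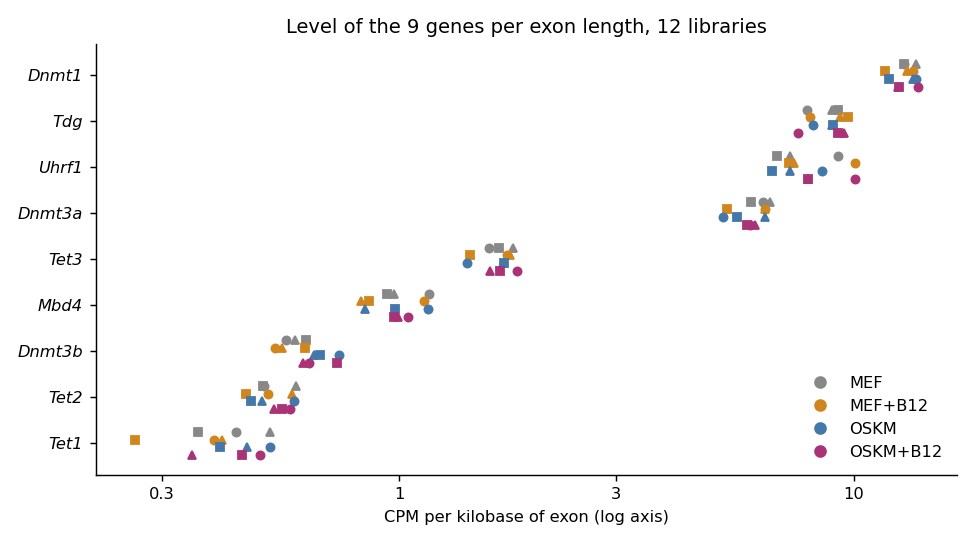
Each point is 1 library, with the level in CPM per kilobase of exon on a log axis, the genes in order of their mean, the colour giving the group and the marker the clone (circle 1, square 2, triangle 3). Levels run from 0.262 CPM per kilobase (Tet1, lowest library) to 13.9 (Dnmt1, highest library).

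Within each family 1 gene made up most of the summed level per kilobase of exon. For Dnmt1 this depends on length, as its annotated exons cover 7377 bases against 16642 for Dnmt3a. Without division by length, Dnmt3a was at 104 CPM in MEF against 96.98 for Dnmt1. Of the summed level per kilobase of the 3 DNA methyltransferases, Dnmt1 made up 65.8 ± 0.548% in MEF (SD, n = 3), 66.0 ± 0.607% once B12 was added, 67.2 ± 2.39% in OSKM and 66.2 ± 1.48% in OSKM+B12. Dnmt3a supplied 29.3 to 31.3% as a group mean and Dnmt3b 2.96 to 3.53%. Among the TET genes, Tet3 made up 63.3 ± 2.18% in MEF, 65.3 ± 1.32% once B12 was added, 62.0 ± 5.27% in OSKM and 63.2 ± 1.02% in OSKM+B12. Tet2 supplied 20.1 to 20.7% as a group mean and Tet1 14.0 to 17.9%. The makeup of both families was therefore nearly the same in all 4 groups, with group means that lay within a few percentage points of each other.

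The 9 genes also differed in how far they varied between libraries. Dnmt1 was the most even, with a highest library 1.18 times its lowest and an SD of 0.080 on the log2 scale, below the median of 0.19 over all genes tested. Tet1 varied most, by a factor of 1.99 (SD 0.28), and Uhrf1 was the only other gene above that median, with a factor of 1.52 (SD 0.21). The remaining 6 spanned factors of 1.27 to 1.41.

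**Figure D2:**
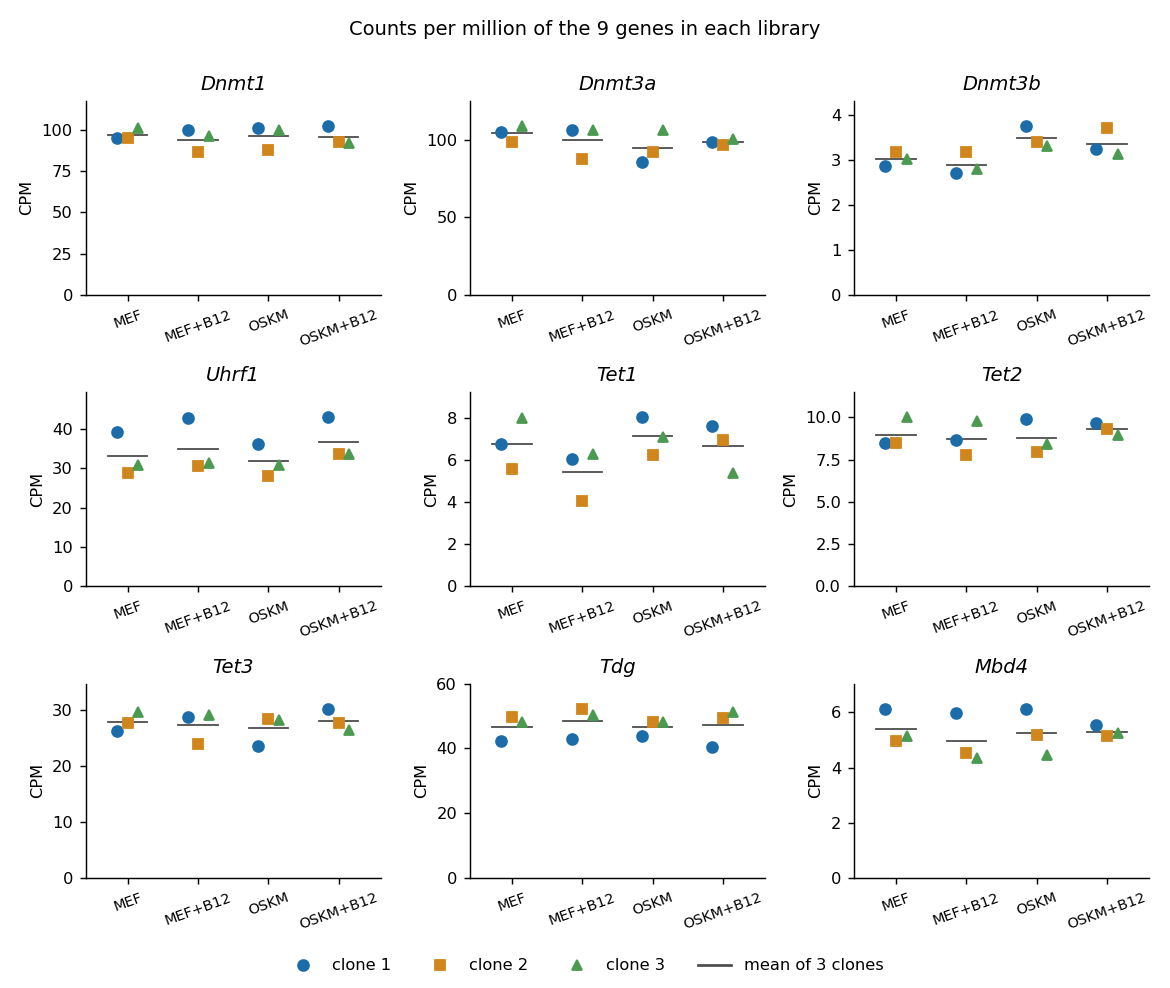
CPM of each of the 9 genes in each library, by group on the x axis, with each clone as a marker and the bar as the mean of 3 clones, and every y axis starting at 0. Clone 1 lies above clones 2 and 3 for Uhrf1 and Mbd4 and below them for Tdg in all 4 groups, and the group means differ little.

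The first comparison asked whether 72 h of OSKM induction changed this machinery. None of the 9 genes passed the threshold (adjusted p under 0.05, edgeR) in OSKM against MEF, where 0.073% of all genes did, and none had an unadjusted p under 0.05, against 19% of all genes. The median log2 fold change of the 9 was -0.04, beside -0.01 over all genes tested. The 95% intervals of all 9 lay between -0.29 and 0.44 on the log2 scale. With B12 present in both states (OSKM+B12 against MEF+B12), none of the 9 passed, where 0.104% of all genes did, none had an unadjusted p under 0.05, against 14.9% of all genes, and the median was 0.08, beside 0.00 over all genes.

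Maintenance genes were level across induction. Dnmt1 was at 96.98 ± 3.58 CPM in MEF (SD, n = 3) and 96.2 ± 7.11 in OSKM, and at 94.1 ± 6.96 in MEF+B12 and 95.5 ± 5.74 in OSKM+B12. Its log2 fold change was -0.02 ± 0.05 (standard error) without B12 and 0.02 ± 0.05 with it. Uhrf1 was at 33.0 ± 5.53 CPM in MEF and 31.7 ± 4.08 in OSKM, a log2 fold change of -0.05 ± 0.05, and at 35.0 ± 6.81 in MEF+B12 and 36.7 ± 5.32 in OSKM+B12, a log2 fold change of 0.08 ± 0.05.

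Dnmt3b was the gene with the most regular response. It stood at 2.88, 3.18 and 3.01 CPM in MEF for clones 1, 2 and 3, and at 2.72, 3.17 and 2.81 in MEF+B12. With induction it stood at 3.75, 3.41 and 3.31 CPM in OSKM and at 3.24, 3.71 and 3.13 in OSKM+B12. Every induced library was above the uninduced library of its own clone and B12 state, by 0.10 to 0.38 on the log2 scale, in 6 of 6 pairs. Libraries of OSKM+B12 and MEF+B12 overlapped in level. A rise in all 6 pairs was met by 7.34% of all genes tested, so it is not rare. The log2 fold change was 0.21 ± 0.10 without B12 (adjusted p = 0.299) and 0.21 ± 0.10 with B12 (adjusted p = 0.374). Without the OSKM library of clone 1 the value without B12 was 0.12. Averaged over both B12 states it was 0.21 ± 0.07, or 15.8% higher (95% interval 0.05 to 0.37 on the log2 scale, adjusted p = 0.0936), which did not pass. In this averaged comparison 9.73% of all genes passed and none of the 9 did, while 26.8% of all genes and 1 of the 9, Dnmt3b, had an unadjusted p under 0.05. Dnmt3b was counted by only 166 to 258 read pairs per library, and 13.48% of its 31-base words occur in Dnmt3c, a rodent copy that itself held 1 to 15 pairs, so its counts are uncertain to that extent.

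Dnmt3a, which pairs with DNMT3L or DNMT3B in de novo methylation, did not follow it. It was at 104 ± 5.13 CPM in MEF and 94.5 ± 10.5 in OSKM, with a log2 fold change of -0.14 ± 0.07 (adjusted p = 0.288) and a lower value in all 3 clones. Without the OSKM library of clone 1 it was -0.06. With B12 the values were 100 ± 10.7 and 98.6 ± 2.02 CPM, a log2 fold change of -0.02 ± 0.07.

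Tet1 responded unevenly among clones. Its values in clones 1, 2 and 3 were 6.77, 5.58 and 8.01 CPM in MEF, 6.06, 4.05 and 6.28 in MEF+B12. In induced cells they were 8.04, 6.24 and 7.13 CPM in OSKM and 7.62, 6.98 and 5.39 in OSKM+B12. Induced libraries were higher than their uninduced partner in both B12 states for clones 1 and 2 and lower in both for clone 3, the clone with the least Pou5f1. Averaged over B12 states, the differences were 0.29, 0.47 and -0.19 on the log2 scale for clones 1, 2 and 3, and the fitted value over clones was 0.19 ± 0.11 (adjusted p = 0.314). Without clone 3, Tet1 rose by 0.38 and passed (adjusted p = 0.0258), where 15.9% of all genes did. Tet2, with differences of 0.19, 0.09 and -0.19, had the same order of signs, although clone 2 was lower without B12.

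Whether the clones responded differently to induction was tested directly by an F test over the products of clone and state. None of the 9 passed, where 2.15% of all genes did. Tet1 (adjusted p = 0.218) and Tet2 (adjusted p = 0.268) were 2 of the 9 with an unadjusted p under 0.05, as were 14.8% of all genes. The Tet1 and Tet2 patterns over clones are thus values on which the test made no call.

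Tet3, the TET gene with the highest level, was at 27.9 ± 1.68 CPM in MEF and 27.3 ± 2.97 in MEF+B12, and at 26.7 ± 2.79 in OSKM against 28.1 ± 1.91 in OSKM+B12. Tet2 was at 8.99 ± 0.877, 8.74 ± 1.03, 8.76 ± 1.01 and 9.31 ± 0.375 CPM in the same order. In both genes the groups overlapped throughout. The glycosylase genes were as even across induction, with averaged log2 fold changes of -0.02 ± 0.03 for Tdg and 0.03 ± 0.07 for Mbd4.

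**Figure D3:**
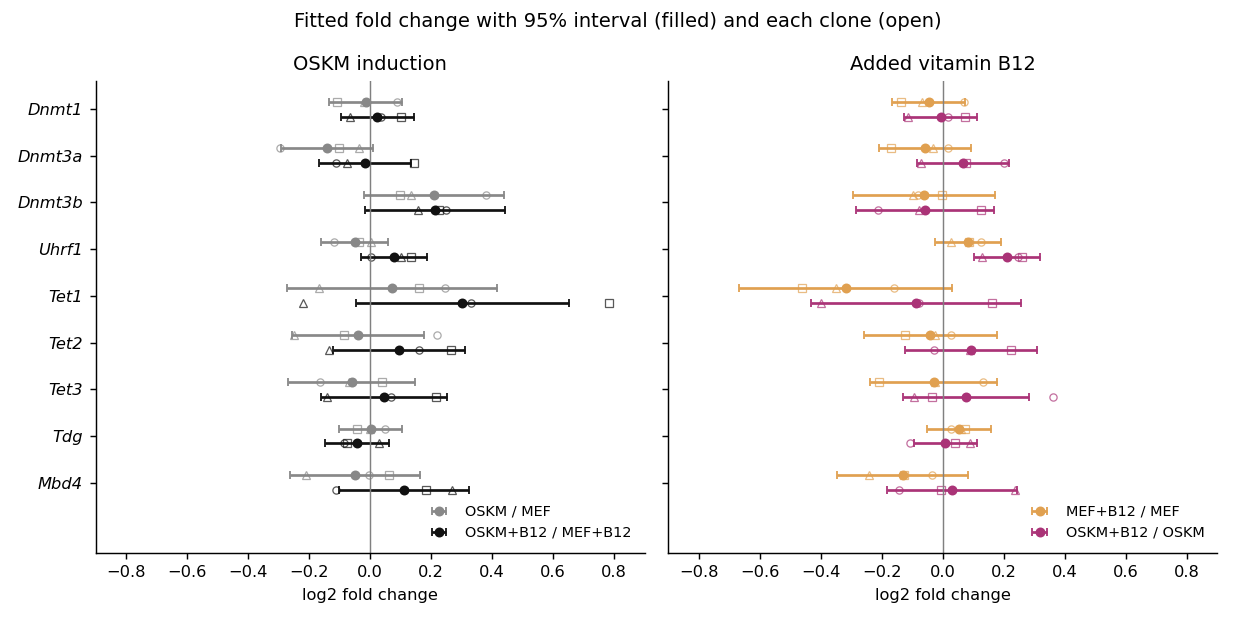
Log2 fold change of each gene with OSKM induction (left) and with added B12 (right). Filled points are fitted values with 95% intervals and open markers are the 3 clones (circle 1, square 2, triangle 3). All intervals include 0 except that of Uhrf1 in OSKM+B12 against OSKM, at 0.21 (0.10 to 0.32), and Tet1 shows the widest spread of clones.

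The second comparison asked what added B12, a cofactor of methionine synthase and thereby of the supply of methyl groups, did to the same genes. None of the 9 passed in MEF+B12 against MEF, where 1.38% of all genes passed, and none in OSKM+B12 against OSKM, where 1.06% passed. At an unadjusted p under 0.05 there were 0 of the 9 in MEF, against 10.3% of all genes, and 1 of the 9 in OSKM, Uhrf1, against 9.82%. The medians of the 9 were -0.05 and 0.03 on the log2 scale, beside -0.01 and -0.01 over all genes. The effect averaged over both states called 1 of the 9, Uhrf1, where 3.84% of all genes passed and 3.46% passed as higher. It was also the only one of the 9 with an unadjusted p under 0.05 there, against 15.5% of all genes.

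Uhrf1 stood at 39.3, 28.9 and 30.8 CPM in MEF for clones 1, 2 and 3 and at 42.8, 30.7 and 31.4 in MEF+B12. In induced cells it stood at 36.1, 28.1 and 30.9 CPM in OSKM and at 42.9, 33.7 and 33.7 in OSKM+B12. The groups overlapped and clone 1 was the highest in each of them, but within each clone and state the library with B12 was the higher, in 6 of 6 pairs, by 0.03 to 0.26 on the log2 scale. A rise in all 6 pairs was met by 8% of all genes. The averaged log2 fold change was 0.15 ± 0.03, which is 10.6% (adjusted p = 0.0428), and the clones gave 0.19, 0.17 and 0.08. Taken by state, the values were 0.08 ± 0.05 in MEF (adjusted p = 0.659) and 0.21 ± 0.05 in OSKM (adjusted p = 0.0870).

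The call for Uhrf1 was a narrow one. It was lost when any 1 clone was left out (log2 fold changes 0.13, 0.13 and 0.19 without clones 1, 2 and 3, with adjusted p of 0.189, 0.489 and 0.0967), when the OSKM library of clone 1 was left out (0.13, adjusted p = 0.0589), without the clone block (0.15, adjusted p = 0.997) and without the filter on low counts (0.14, adjusted p = 0.0888). The direction was the same each time. The share of all genes that passed fell too, from 3.84% to 2.75%, 0.176% and 1.65% without clones 1, 2 and 3. It was 0.469% without the clone block and 2.51% without the filter, but 4.03% without the OSKM library of clone 1. In 24.2% of its 31-base words Uhrf1 shares sequence with other genes, mainly the processed pseudogene Gm5648 on chromosome X, which held 133 to 252 counts. With the counts of Gm5648 and of a second pseudogene, Gm15953, added to Uhrf1, an alternative chosen after the data were seen, the call stood.

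A list of 15 S phase genes, which carry out DNA replication, is given beside Uhrf1. Their mean was higher with B12 in all 6 pairs, by 0.05 to 0.10 on the log2 scale. In the averaged comparison 13 of the 15 had positive values, with a median of 0.07 beside -0.01 over all genes tested, and 2 passed, where 3.84% of all genes did: Mcm5, a subunit of the replicative helicase, at 0.24 ± 0.03 (adjusted p = 9e-04), and Cdt1, which loads that helicase, at 0.14 ± 0.03 (adjusted p = 0.0399). Rrm2, a subunit of ribonucleotide reductase, had the lowest value at -0.03 ± 0.04. Pcna, the clamp that holds DNMT1 and polymerases on replicating DNA, rose by 0.17 ± 0.03 (adjusted p = 0.0105). Over the 12 libraries the correlation of Uhrf1 with the S phase mean was 0.82, and 0.55 after the mean of each clone was subtracted, as a description of libraries that share 3 embryos. For Dnmt1 the same values were 0.28 and -0.07. For Tdg they were -0.73 and 0.02, for Mbd4 0.67 and -0.05, for Dnmt3b 0.20 and 0.43. For Dnmt3a they were -0.31 and -0.31, for Tet1 0.28 and 0.09, for Tet2 0.26 and 0.36, for Tet3 -0.07 and 0.13. Macrophage markers also moved with B12, 9 of 11 rising in the averaged comparison with sums of 1166 to 2247 CPM in MEF against 1757 to 2974 in MEF+B12. In induced cells the sums were 1176 to 2062 CPM without B12 and 1785 to 2376 with it. The 9 were Fcgr1, an antibody receptor (0.95 ± 0.10, adjusted p = 0.00044), Mrc1, Csf1r, Cd68, Adgre1, Ptprc, Itgam, Lyz2 and Cd14 (0.35 ± 0.07, adjusted p = 0.0217). The other two were Mertk at 0.03 ± 0.05 and the chemokine receptor Cx3cr1 at -0.45 ± 0.20 (adjusted p = 0.296). None of the 10 fibroblast markers passed with B12, and all 10 had negative values, with a median of -0.11. The part of replicating cells, macrophages or fibroblasts in the Uhrf1 result was not tested.

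**Figure D4:**
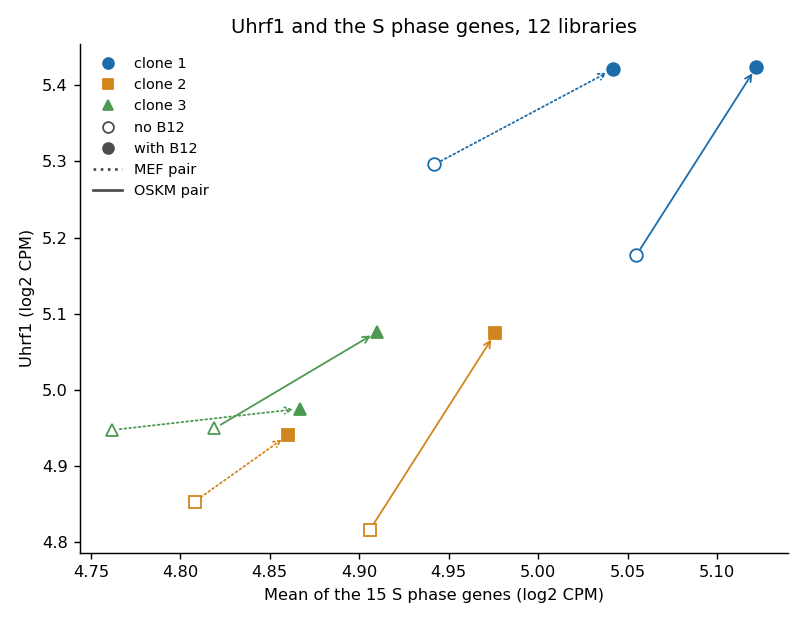
Uhrf1 against the mean of 15 S phase genes, both in log2 CPM, for the 12 libraries, with open markers without B12, filled markers with B12 and an arrow from each to the other within a clone and state. All 6 arrows point up and to the right, and clone 1 lies above the other clones.

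Among the genes whose pattern over the 12 libraries was most like that of Uhrf1, out of 11648 searched, were Kif18b (r = 0.97) and Pclaf (r = 0.96). With clone means subtracted these values were 0.87 and 0.81. For Dnmt1 the most alike were Ylpm1 (r = 0.96), Clasp1 (r = 0.95) and Chd8 (r = 0.94). For Tet1 they were Wiz, Zfp398 and Bcr (r = 0.95, 0.94 and 0.94), and for Tdg they were Atp6v1e1, Lamtor3 and Glmp (r = 0.99 each). All of these are descriptions over libraries that share embryos.

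Among the other genes, Tet1 had the largest difference with B12, downward. It was lower with B12 in all 3 uninduced clones, with a log2 fold change of -0.32 ± 0.16 (adjusted p = 0.546), and lower in 2 of 3 induced clones, at -0.09 ± 0.16. The averaged value of -0.20 ± 0.11 (95% interval -0.45 to 0.04, adjusted p = 0.425) did not pass. Mbd4 was lower in 5 of 6 pairs with an averaged value of -0.05 ± 0.07, and Dnmt3b was lower in 5 of 6 at -0.06 ± 0.07. Dnmt1 (-0.03 ± 0.04), Dnmt3a (0.00 ± 0.05), Tet2 (0.03 ± 0.07), Tet3 (0.02 ± 0.07) and Tdg (0.03 ± 0.03) were closest to no difference, each within 0.1 of 0 on the log2 scale.

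Whether B12 acted differently in induced and uninduced cells was tested by the interaction. It called 0 of the 9 and 0% of all genes (adjusted p under 0.05, edgeR), with 1.42% of all genes and none of the 9 at an unadjusted p under 0.05, and DESeq2 called none of the 9 either. The interaction of Uhrf1 was 0.13 ± 0.07 (adjusted p = 1.00), so its larger value in OSKM than in MEF was not shown to differ. The product of clone and B12 called 0 of the 9 and 0% of all genes, and at an unadjusted p under 0.05 there were 1 of the 9, Tet3, and 1.18% of all genes. Tet3 was 0.36 higher with B12 in the OSKM pair of clone 1 and between -0.21 and 0.13 in the other 5 pairs.

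More of the 9 genes differed between embryos than with either treatment. Of the 9, 3 differed between clones, where 37.8% of all genes did, so the share is near the background, as it is at an unadjusted p under 0.05 (5 of the 9 against 47.9%). In each of the 3, clone 1 did not overlap clones 2 and 3, a separation met by 16.9% of all genes. Uhrf1 was at 40.3 ± 3.23 CPM in clone 1 (SD, n = 4 libraries), 30.3 ± 2.46 in clone 2 and 31.7 ± 1.36 in clone 3 (adjusted p = 7.8e-05). Mbd4 was likewise high in clone 1, at 5.94 ± 0.281 CPM against 4.95 ± 0.296 and 4.79 ± 0.466 (adjusted p = 0.0221). Tdg went the other way, at 42.4 ± 1.34 CPM in clone 1 against 49.9 ± 1.67 and 49.4 ± 1.54 (adjusted p = 0.00177). Of the 2 glycosylases that act on the T:G mismatch, clone 1 thus had the highest Mbd4 and the lowest Tdg. The S phase mean was also highest in clone 1 in each group, at 4.94 to 5.12 log2 CPM against 4.76 to 4.98 in the other clones, and its part in these differences was not tested.

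Without clone 1, which leaves libraries of 1 title year and of embryos with Xist, Uhrf1, Tdg and Mbd4 no longer passed and Dnmt3a did, where 6.88% of all genes passed. Dnmt3a was at 93.7 ± 4.95 CPM in clone 2 and 105 ± 3.34 in clone 3. Without the OSKM library of clone 1, Mbd4 no longer passed and Dnmt3a did, where 35.9% of all genes passed. Tdg shares 41.8% of its 31-base words with other genes, chiefly the processed pseudogenes Tdg-ps, Gm9855 and Gm5597, which held 614 to 1130 counts each beside 2440 to 3747 for Tdg. Adding their counts to Tdg left the same 3 genes past the threshold.

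Partners of the 9 genes were followed as 2 lists. Of 10 partners of maintenance and de novo methylation, only Pcna passed with B12 (above), where 3.84% of all genes did. With induction averaged over B12 states only Dppa3 passed, where 9.73% of all genes did. Dppa3, which keeps UHRF1 from DNA in oocytes, fell by 0.81 ± 0.18 on the log2 scale (adjusted p = 0.0258, edgeR). Dppa3 was at only 0.282 to 0.896 CPM. Of 9 tested partners and regulators of TET enzymes, 3 passed with induction, where 9.73% of all genes did: Cxxc5, a CpG-binding protein, rose by 0.21 ± 0.05 (adjusted p = 0.0256), whereas Gadd45a and Gadd45b, stress-induced proteins linked to demethylation, fell by 0.22 ± 0.05 (adjusted p = 0.0295) and 0.21 ± 0.05 (adjusted p = 0.0261). With B12 none of these 9 passed and all 9 had negative averaged values, with a median of -0.05 beside -0.01 over all genes. Sall4 did not pass the filter, with at most 1 count in a library.

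In the averaged comparisons 9.73% of all genes passed with induction and 3.84% with B12. Base excision repair, which follows TDG, gave no call there with induction (10 genes, median 0.05) or with B12 (median 0.00). Its extremes were Neil3 (0.18 ± 0.08) and Ung (-0.10 ± 0.05) with induction and Ung (0.14 ± 0.05) and Neil2 (-0.20 ± 0.13) with B12. Proteins that read methylated CpGs gave none either (9 genes, medians -0.03 and -0.05). Their extremes were Mbd6 (0.10 ± 0.08) and Zbtb38 (-0.13 ± 0.05) with induction, and the same pair with B12 (0.04 ± 0.08 and -0.10 ± 0.05).

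Some germline genes are known to be kept silent in body cells by methylation of their promoters. Of 12 such genes, 9 were too low to be tested, among them Dazl at no more than 4 counts and Mael at no more than 1 count in a library. The 3 tested were Ddx4 (2.06 to 3.07 CPM), Brdt (4.75 to 5.88 CPM) and Tdrd1 (0.0632 to 0.252 CPM). None of these 3 was called in any comparison, where up to 37.8% of all genes passed. The extremes with induction averaged over B12 states were Tdrd1 (0.42 ± 0.29) and Brdt (-0.07 ± 0.06), and with B12 they were Brdt (0.07 ± 0.06) and Tdrd1 (-0.38 ± 0.29).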

How the data were processed

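Poly(A) RNA of 12 cultures was made into strand-specific libraries. Per the labels and the study's methods, the authors aligned read pairs to mm10 (GRCm38) with STAR 2.5.2, then used featureCounts with the reverse-stranded option to give each gene its number of pairs, and added together the flow cells of a library. The treatment of reads matching several places is not given in the sources used here. What they deposited is a table of raw counts, with no scaling. Symbols and exon lengths came from GENCODE M21 on the same build and matched 55480 of 55573 identifiers. CPM were computed here with TMM factors (0.934 to 1.06), and log2 CPM used a prior count of 2.

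Tests were edgeR 4.0.16 quasi-likelihood F tests on the counts, with filterByExpr by group (19174 genes), Benjamini-Hochberg adjustment over all of them and a threshold of 0.05. All 12 libraries entered 1 fit with group and clone as terms, and clone products were added for the 2 clone questions. Clone served as a block, since every embryo contributed 1 library to each group. Libraries of one clone deviated together, with correlations of 0.27 to 0.687 over 18 pairs against at most 0.17 over 36 pairs of different clones. No 2 libraries were identical. Counts carry no molecular identifiers, so amplification error is not separate. The block removes differences in level between clones. For treatments, the p-values therefore rest on how far the differences within a clone varied over the 3 embryos, pooled over all 4 groups. For differences between clones, they rest on the spread of libraries within a clone around the same fit. In both cases edgeR also draws the spread of each gene towards that of all genes.

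All 9 genes were followed in every comparison. Of other lists, genes past the threshold in the averaged comparisons are named, and for most lists the extremes where none passed. The genes and lists were chosen with earlier results of these data known. One gene that the naming rule for likeness to Uhrf1 gave is not reported here. Shared sequence is the percentage of a gene's 31-base words found in transcripts of other genes. Alternatives were DESeq2 1.42.0, DESeq2 size factors, library totals, no filter, at least 10 counts in every library, no clone block, only the libraries compared, leaving out each clone or the OSKM library of clone 1 and, chosen after seeing the data, adding pseudogene counts to Uhrf1 and Tdg. The procedure was tested on simulated data.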

Additional observations from a re-analysis of the deposited data

How the results depend on the processing

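Numbers of the 9 genes past the threshold were recomputed under each alternative. The B12 effect averaged over both states called 1 (Uhrf1), where 3.84% of all genes passed. It gave 0 without the filter (2.51% of all genes) and 0 without the OSKM library of clone 1 (4.03%). Leaving out any clone gave 0 as well (0.176 to 2.75%). So did dropping the clone block (0.469%), which removes the pairing of libraries by embryo. Induction averaged over B12 states called 0 and gave 0 to 1 when a clone was left out, the 1 being Tet1 without clone 3. In that setting 15.9% of all genes passed. Differences between clones called 3 and gave 1 to 4 when a clone was left out, with Tet1 added without clone 3. Of all genes 6.88%, 27.3% and 28.2% passed without clones 1, 2 and 3, against 37.8% with all clones. The product of clone and induction called 0 and gave 1, Tet1, without the filter, where 3.8% of all genes passed. The other counts of the 9 stayed within 1.5 times of the reported ones. Without the clone block none of the 9 passed in any treatment comparison, but apart from Uhrf1 there was no call to lose. Differences between clones cannot be tested in that fit. For single genes, 729 log2 fold changes were recomputed. No called value changed sign, while 59 values that were called in neither setting did, with reported sizes up to 0.16 on the log2 scale, so those directions are not settled. With 3 embryos, Tet1 and Dnmt3b had the widest 95% intervals. For a gene without a call, differences inside its interval were not excluded.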

Other observations

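Of 7 genes of methionine and folate metabolism, which supplies methyl groups to these enzymes, 2 passed with induction averaged over B12 states, where 9.73% of all genes did. Ahcy, which clears the product of methyltransferases, rose by 0.17 ± 0.04 on the log2 scale (adjusted p = 0.0326, edgeR), and Shmt1, which loads one-carbon units on folate, rose by 0.25 ± 0.07 (adjusted p = 0.0431, edgeR). None of the 7 passed in OSKM against MEF or in OSKM+B12 against MEF+B12, where 0.073% and 0.104% of all genes did. The median of the 7 was 0.09, beside 0.00 over all genes tested. With B12 averaged over both states none of the 7 passed, where 3.84% of all genes did. The extremes were Shmt1 at 0.08 ± 0.07 and Ahcy at -0.02 ± 0.04, and the difference between the treatments was not tested.

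Of the 15 S phase genes, 2 passed with induction averaged over B12 states, where 9.73% of all genes did. Mcm7, a helicase subunit, rose by 0.18 ± 0.04 (adjusted p = 0.0236, edgeR) and Ccne2, a cyclin of S phase entry, by 0.23 ± 0.05 (adjusted p = 0.0255, edgeR) with induction, beside 0.02 ± 0.04 and 0.03 ± 0.05 with B12. The mean of the 15 S phase genes was higher in 6 of 6 pairs with induction too, by 0.04 to 0.12 on the log2 scale, whereas Uhrf1 was higher in 4 of the 6. Of the other markers, Krt8 and Cdh1 rose with induction (adjusted p under 0.05, edgeR) among the 3 of 7 epithelial genes tested. Cdh5 and Tek rose among the 3 of 6 endothelial genes tested, and no gene of these lists passed with B12. Epithelial sums in OSKM were 3.6, 4.46 and 0.795 CPM for clones 1, 2 and 3, against 0.710 to 1.13 in MEF. Endothelial sums were 145, 125 and 53.0 CPM, against 41.9 to 46.6. The product of clone and induction called Krt8, Cdh5 and Tek, where 2.15% of all genes passed. With induction Col1a1, Col1a2, Pdgfra and Pdgfrb passed as lower among the 10 fibroblast genes, where 9.73% of all genes passed. The median of the 10 was -0.15, and 3 of them had positive values, the highest being Dcn (0.09 ± 0.06). Of the 11 macrophage genes 4 passed with induction, Itgam as higher (0.37 ± 0.10, adjusted p = 0.0389, edgeR) and Csf1r, Adgre1 and Mertk as lower (-0.31 ± 0.08, -0.27 ± 0.07 and -0.17 ± 0.05), and 10 of the 11 had negative values, with a median of -0.20.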
